A study of Mus musculus with 50 samples.

Results

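The metallothionein cluster of the mouse lies on chromosome 8 and comprises Mt4, Mt3, Mt2 and Mt1, 4 of the 21938 protein-coding genes in the annotation (GENCODE M21). Peaks were assigned to it when their summit, the base of highest signal, lay within 50 kb of the transcription start of any of these genes in the mm10 build, a stretch of 142 kb (chr8:94087197-94229082). Over 39 libraries the lists held 163859 peaks, of which 156 met this rule, 89 of them for the glucocorticoid receptor (GR) and 67 for the transcription factor NFIA. The genes were picked as known glucocorticoid targets and Mt1 and Mt2 were used as examples by the study itself, so that a peak beside them is not an independent discovery.

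Metallothioneins are small cysteine-rich proteins that bind zinc and copper and buffer free metal in the cell. Mt1 and Mt2 are made in most tissues and are classic genes induced both by metals, through the factor MTF1 at metal response elements (MREs) in their promoters, and by glucocorticoids, through GR. Mt3 is the brain form, also known as growth inhibitory factor, and Mt4 is known from stratified squamous epithelium. GR is a nuclear receptor that enters the nucleus on binding corticosterone or the synthetic agonist dexamethasone and binds glucocorticoid response elements (GREs), and NFIA is a nuclear factor I protein that specifies astrocytes.

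CUT&RUN, which releases and sequences the DNA fragments around an antibody-bound factor, was performed on GFP-positive nuclei of V1, the primary visual cortex, sorted at postnatal day 14, and on 3T3 fibroblasts. For GR, astrocytes came from WT mice reared normally (NR, n = 3) or in the dark from birth (DR, n = 3), and from NR mice with a floxed GR gene that received a virus with inactive ΔCre (GR-con, n = 2) or with active Cre (GR-KO, n = 2). In all 4 groups an adeno-associated virus with the GfaABC1D astrocyte promoter drove the reporter, so that DR and NR astrocytes carried ΔCre too, and each replicate pooled V1 tissue of several animals. Oligodendrocytes (Olig2-Cre;Sun1-GFPfl/fl), inhibitory neurons (Slc32a1-Cre;Sun1-GFPfl/fl) and excitatory neurons (Slc17a7-Cre;Sun1-GFPfl/fl) came from NR mice (n = 3 each for GR). These genotypes are those of the labels, and the methods of the study give the reporter as heterozygous (Sun1-GFPfl/+). NFIA was profiled in NR astrocytes, labelled WT although the methods of the study describe NFIA astrocyte libraries from floxed GR mice, and in the same 3 other cell types (n = 3 each). 3T3 cells, an established mouse line, were WT and received 200 nM dexamethasone (DEX) or vehicle for 2 h, in reactions of fewer (50K) or more (250K) nuclei (n = 2 in each of 4 groups).

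The lists differed in size before any locus was considered. NR astrocytes held 2262 to 21539 GR peaks and DR astrocytes 28 to 293, GR-con 6792 to 7761 and GR-KO 413 to 1846, and the smallest list of all held 1 peak (NFIA, excitatory neurons). Read depth is not contained in the lists and is unknown here. Peaks of the GR astrocyte NR libraries lay within 50 kb of 8 of 8 astrocyte marker genes in at least 2 libraries, whereas the oligodendrocyte GR lists had none at 7 oligodendrocyte markers, the inhibitory neuron lists covered 4 of 7 of their markers, the excitatory neuron lists 1 of 5 and the DEX 250K lists 1 of 5 fibroblast markers. In the DR and the GR-KO lists 0 of the 8 astrocyte markers had a peak in at least 2 libraries, and 4 and 5 of them had one in any library. NR astrocyte lists also had peaks at 4 of 7 oligodendrocyte, 1 of 7 inhibitory neuron, 2 of 5 excitatory neuron and 3 of 5 fibroblast markers, and the part of other cells in the results was not tested.

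Sequence was read at the elements that carry the comparison of astrocytes with 3T3 cells. An element is a run of overlapping peaks from all GR libraries. The letters are from GRCm38 (mm10), plus strand, in windows of 300 bases around the median summit. Capitals mark GRE-like sequences (ACANNNTGT, extended to the full GRE where it matches) and the nuclear factor I half-site TTGGCA on either strand. A half-site on the minus strand appears as TGCCAA in these plus-strand letters. The element upstream of Mt2 (chr8:94171350-94171649) and the element downstream of Mt1 (chr8:94189346-94189645) are shown because both GR in NR astrocytes and GR in DEX-treated 3T3 cells had peaks there. The element downstream of Mt3 (chr8:94154563-94154862) is shown because it led the NR astrocyte libraries and had no peak in any 3T3 library.
Mt2 upstream: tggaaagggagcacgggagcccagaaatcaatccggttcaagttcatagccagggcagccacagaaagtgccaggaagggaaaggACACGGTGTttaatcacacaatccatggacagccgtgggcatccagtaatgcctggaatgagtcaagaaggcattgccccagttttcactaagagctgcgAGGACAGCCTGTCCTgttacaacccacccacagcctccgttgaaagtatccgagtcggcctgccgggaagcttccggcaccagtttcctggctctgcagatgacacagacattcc
Mt1 downstream: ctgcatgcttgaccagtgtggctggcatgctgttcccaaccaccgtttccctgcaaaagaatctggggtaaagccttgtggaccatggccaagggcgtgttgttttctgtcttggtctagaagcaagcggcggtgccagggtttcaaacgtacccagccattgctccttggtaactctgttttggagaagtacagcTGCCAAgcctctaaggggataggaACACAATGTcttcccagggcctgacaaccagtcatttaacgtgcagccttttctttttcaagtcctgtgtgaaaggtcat
Mt3 downstream: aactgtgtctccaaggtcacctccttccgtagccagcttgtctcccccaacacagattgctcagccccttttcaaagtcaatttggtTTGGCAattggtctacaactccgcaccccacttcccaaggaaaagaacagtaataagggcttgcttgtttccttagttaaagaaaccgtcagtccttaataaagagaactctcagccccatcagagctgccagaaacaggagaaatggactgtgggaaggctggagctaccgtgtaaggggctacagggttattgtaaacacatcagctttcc

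The bases before the Mt1 and Mt2 starts are shown because GR peaks covered both in NR astrocytes while those of 3T3 cells covered Mt1 alone. They come from the RefSeq promoter table (GRCm38.p6, plus strand), 243 bases for Mt1 (chr8:94178839-94179081) and 250 bases for Mt2 (chr8:94172368-94172617), and capitals mark the full GRE and the MRE core (TGCACNC or TGCGCNC, either strand).
Mt1 promoter: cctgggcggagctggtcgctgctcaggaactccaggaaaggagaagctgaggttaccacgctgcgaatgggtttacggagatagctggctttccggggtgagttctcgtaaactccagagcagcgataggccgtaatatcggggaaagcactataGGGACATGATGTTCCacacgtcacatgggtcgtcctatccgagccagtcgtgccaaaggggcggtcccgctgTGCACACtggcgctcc
Mt2 promoter: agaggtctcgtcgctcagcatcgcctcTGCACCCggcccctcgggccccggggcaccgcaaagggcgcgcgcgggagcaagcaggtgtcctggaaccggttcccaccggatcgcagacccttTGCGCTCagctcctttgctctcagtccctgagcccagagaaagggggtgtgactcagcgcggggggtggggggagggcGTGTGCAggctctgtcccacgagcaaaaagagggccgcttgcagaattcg

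GR occupied the cluster in astrocytes of normally reared mice and was not called there after dark rearing. The NR libraries held 20, 3 and 20 peaks (14.3 ± 9.81, SD, n = 3), and the DR libraries held 0, 0 and 0. NR replicate 2, whose list was the shortest of the 3, stood far below the others, and the groups did not overlap. Each gene repeated this pattern within its own window, with 11 ± 7.81 NR peaks for Mt4, 11.3 ± 8.08 for Mt3, 11 ± 7.81 for Mt2 and 10.3 ± 7.23 for Mt1, windows that largely cover the same peaks. All 4 genes had every NR library above every DR library, as did 10.6% of protein-coding genes. The difference of 14.3 peaks had an exact permutation p of 0.1 (two-sided), the smallest that 3 against 3 libraries allow, and an adjusted p of 0.125 over the 5 comparisons of peak numbers. At the NR share of 11.4 cluster peaks per 10000 listed peaks, the 390 peaks of the DR lists together would hold 0.443 cluster peaks, so the absence of a DR call at this one locus was not distinguishable from the shortness of the DR lists.

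**Figure D1:**
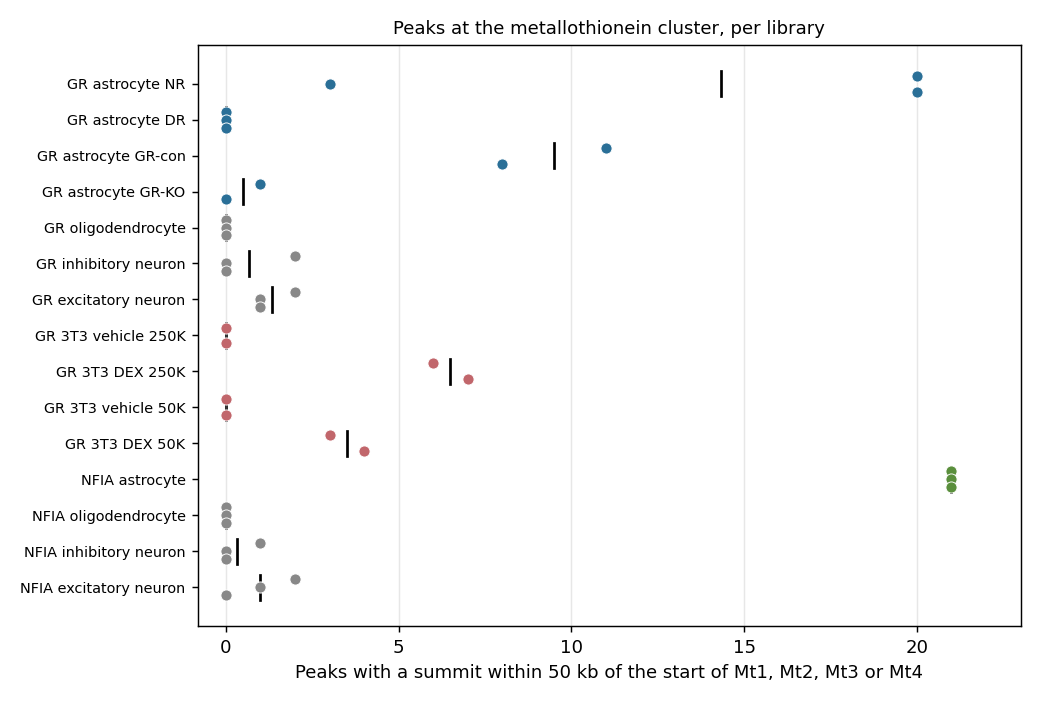
Number of peaks with a summit within 50 kb of the start of Mt1, Mt2, Mt3 or Mt4 (horizontal axis) in each library (points) of the 15 groups (rows), with the group mean as a black line. NFIA astrocyte libraries sit at 21, NR astrocyte GR libraries at 20, 3 and 20, DEX-treated 3T3 libraries at 3 to 7, and vehicle and DR libraries at 0.

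GR-con astrocytes carried GR peaks at the cluster that were mostly not called after deletion of the receptor. GR-con libraries held 11 and 8 cluster peaks and GR-KO libraries 1 and 0. The 2 groups did not overlap, nor did they at any of the 4 genes, whose windows largely cover the same peaks (background 20% of genes). GR-con peaks numbered 7 ± 1.41 at Mt1 and at Mt2 and 6 in both libraries at Mt3 and at Mt4. The difference of 9 peaks had an exact permutation p of 0.33, the smallest that 2 against 2 allow. The GR-KO lists, with 2259 peaks in all, would hold 2.95 cluster peaks at the GR-con share and held 1.

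In 3T3 fibroblasts GR peaks at the cluster were called with dexamethasone and not with vehicle. Vehicle libraries held 0 peaks at either number of nuclei, DEX 250K libraries 6 and 7, and DEX 50K libraries 3 and 4. Every DEX library stood above every vehicle library. Within 50 kb this held for Mt1 (6 and 6 in DEX 250K, 3 and 4 in DEX 50K), Mt2, Mt3 and Mt4, against a background of 1.25% of genes. The windows of the 4 genes largely cover the same peaks, so these are not separate results. With a 20 kb window the Mt4 difference fell from 2.75 to 0.5 peaks, with no DEX 50K peak that near, and Mt4 no longer separated the groups. The mean difference of 5 peaks had an exact permutation p of 0.0556 with nuclei number as stratum, the smallest this design allows (adjusted p = 0.0926). The vehicle 250K lists would hold 1.91 cluster peaks at the DEX 250K share and the vehicle 50K lists 1.69 at the DEX 50K share.

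Among V1 cell types the lists of astrocytes held the most cluster peaks for both factors. GR lists of oligodendrocytes held 0, 0 and 0 cluster peaks, those of inhibitory neurons 2, 0 and 0 and those of excitatory neurons 2, 1 and 1, against 20, 3 and 20 in NR astrocytes. The oligodendrocyte lists held only 4 to 110 GR peaks each. At the NR astrocyte share the pooled lists would hold 0.222 (oligodendrocytes), 5.57 (inhibitory neurons) and 7.13 (excitatory neurons) cluster peaks. They held 0, 2 and 4, so the oligodendrocyte zeros do not show absence of binding. The difference of 13.7 peaks passed the exact permutation test over 3 against 9 libraries (p = 0.00455, the smallest this design gives, adjusted p = 0.0114). Mt4 and Mt3 had every NR astrocyte library above every library of the other types (background 4.52% of genes), whereas at Mt2 and Mt1 NR replicate 2 and inhibitory neuron replicate 1 both had 2 peaks. NFIA lists held 21, 21 and 21 cluster peaks in astrocytes, and 0, 0 and 0 in oligodendrocytes, 1, 0 and 0 in inhibitory neurons and 2, 1 and 0 in excitatory neurons. That difference of 20.6 peaks passed the same exact permutation test (p = 0.00455, adjusted p = 0.0114), and all 4 genes separated the groups, as did 50.4% of genes. The oligodendrocyte NFIA lists held 111 to 722 peaks each. At the NFIA astrocyte share the pooled lists would hold 0.869 (oligodendrocytes), 2.83 (inhibitory neurons) and 3.71 (excitatory neurons) cluster peaks, and held 0, 1 and 3. The NR against DR and the NR against other cell types comparisons share the 3 NR libraries.

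Neither cell type difference passed the test as a share of the list. Averaged over libraries, the GR share was 12.3 cluster peaks per 10000 in NR astrocytes and 20.3 in the other cell types. That difference was reversed and uncalled (exact permutation p = 1). A single excitatory neuron list of 61 peaks with 1 cluster peak weighed 164 per 10000 in the mean. Pooled, the 11359 peaks of the other cell types would hold 12.9 cluster peaks at the NR share of 11.4 per 10000, and held 6. The direction thus depended on how the share was taken. Among lists of at least 1000 peaks the share was 12.3 in astrocytes (n = 3) against 4.66 in the others (n = 4, exact permutation p = 0.0571). The best 1000 peaks of each list, ranked by q, held 4, 3 and 2 cluster peaks in NR astrocytes. They held 1 and 1 in excitatory and 1 and 0 in inhibitory neurons (exact permutation p = 0.0286, adjusted p = 0.0714). That p is the smallest 3 against 4 libraries allow, so the adjusted value says nothing for or against the difference. By fold enrichment the top cluster peaks of NR replicate 1 ranked 36, 680 and 1431. The best of excitatory neuron replicates 1 and 3 ranked 1061 and 1003, so these counts depend on the ranking. For NFIA the share averaged over libraries was 8.46 in astrocytes against 5.63 in the others (exact permutation p = 0.741).

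**Figure D2:**
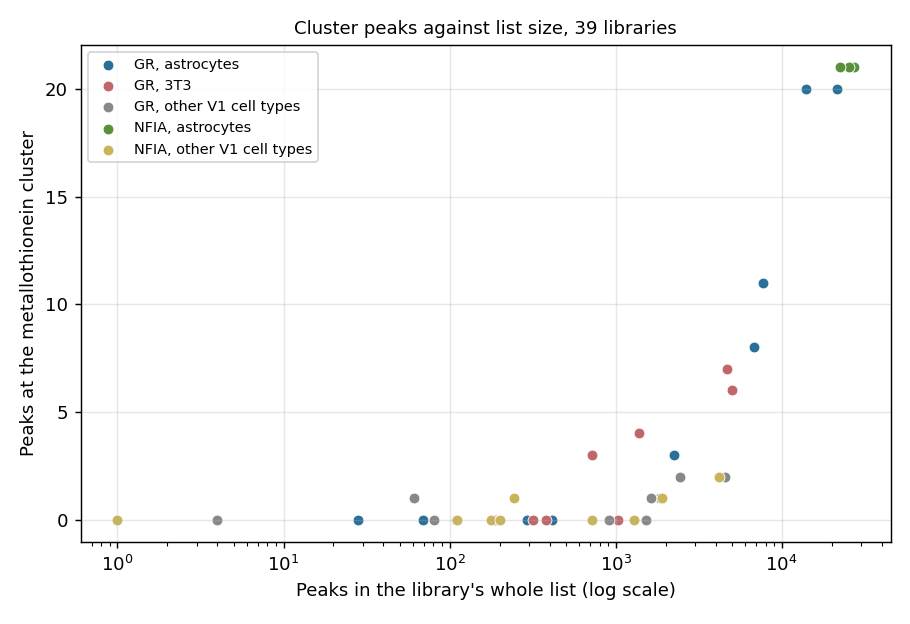
Peaks at the metallothionein cluster (vertical axis) against the number of peaks in the library's whole list (horizontal log axis) for 39 libraries coloured by factor and cell type. Lists of NR and GR-con astrocytes and of DEX-treated 3T3 cells hold 3 or more cluster peaks, DR and GR-KO astrocyte lists 0 or 1, and the lists of other V1 cell types 0 to 2, also the longest of these with 4563 peaks.

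The few neuronal GR peaks lay mainly at the neighbouring genes, outside the row of metallothionein genes. Merging the overlapping GR peaks gave 28 elements in the window, 18 of them seen in astrocyte libraries alone, 4 in 3T3 libraries alone, 4 in both and 3 with a peak in another V1 cell type. All 3 excitatory neuron libraries had a peak at the start of Bbs2 (chr8:94098055-94098647), a component of the ciliary BBSome, and replicate 1 also at the start of Nup93 (chr8:94214319-94214569), a nuclear pore component. Inhibitory neuron replicate 1 shared the Nup93 element and had a peak of its own at -7.93 kb from the Mt4 start (percentile 96.0 of the fold enrichments in its list). Between the Mt4 start and the Mt1 end lay 9 GR elements, of which 0 had a peak in oligodendrocytes or neurons. Of elements with a peak in at least 2 NR libraries, 15.4% over the genome had a peak in another V1 cell type. In the whole window it was 2 of 18 (11.1%), so the 0 of 9 was not read as a trait of this locus. Counting only peaks more than 1 kb inside the Bbs2 and Nup93 starts left 17, 2 and 17 in NR astrocytes, 1, 0 and 0 in inhibitory neurons and 0 in all oligodendrocyte and excitatory neuron libraries (exact permutation p = 0.00455, adjusted p = 0.0114). That cut was chosen after the neuronal peaks had been seen at those starts, and list size was not taken into account, so the p is not independent support.

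An element counted as an NR site when at least 2 of the 3 NR libraries had a peak there, and 18 of the 28 elements did. Only 3 of these 18 were present in all 3 NR libraries, namely the Bbs2 start, the element downstream of Mt3 and the element downstream of Mt1, so that the other 15 rest on NR replicates 1 and 3. Within 50 kb of their own starts Mt4, Mt3 and Mt2 each had 14 NR sites and Mt1 had 13. Of all protein-coding genes 50.4% had at least 1 NR site, 18 genes, among them Mt4, Mt3 and Mt2 with their overlapping windows, had 14 or more (0.082%), and 21 genes had 13 or more (0.0957%). By annotation 7 of the 18 were promoter sites (a transcription start no more than 500 bp away), 2 exonic, 0 intronic and 9 intergenic. An exon of any annotated transcript took precedence over an intron of another. Of the 12461 NR sites of the genome 45.7% were promoter sites, 3.51% exonic, 30.4% intronic and 20.4% intergenic.

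At Mt3, the brain metallothionein, GR sites in NR astrocytes covered the start, the last exon and the flank beyond the gene. The start element (chr8:94152600-94152927, 5' untranslated and coding part of exon 1) had fold enrichments of 13.1 and 9.57 in NR replicates 1 and 3 and 6.75 in GR-con replicate 2. The last exon element (chr8:94153655-94154027) had 8.85 and 6.80 in the same NR libraries and no peak elsewhere among GR lists. Its centre lay in an annotated untranslated part of exon 3, outside the coding part of exon 3 that the element also touched. The downstream element (chr8:94154276-94155030, intergenic) was the strongest of the cluster in all 3 NR libraries, with fold enrichments of 21.9, 7.97 and 25.8, which ranked 36, 435 and 143 in their lists (percentiles 99.8, 80.8 and 99.3). It was also present in both GR-con libraries (percentiles 93.7 and 87.6) and gave the one GR-KO peak of the window, at percentile 60.7 of its list. Of the 18 NR sites 1 had a GR-KO peak, compared with 12.6% of NR sites in the genome, and 6 were called in each GR-con library, compared with 29.4%. No 3T3 library had a peak at any of the 3 Mt3 elements.

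At Mt2 the order of the elements differed between the cell systems. The promoter element (chr8:94172418-94172928, spanning the start and exon 1) held fold enrichments of 10.7 and 11.6 in NR replicates 1 and 3, percentiles 89.2 and 85.1, and 5.24 in GR-con replicate 2, and it had no peak in any of the 8 3T3 libraries. The upstream element (chr8:94171252-94171856), at -1.17 kb from the start and inside the antisense gene Gm45774, was the strongest cluster element in all 4 DEX libraries, with fold enrichments of 11.99 and 13.3 in DEX 250K and 7.97 and 7.58 in DEX 50K (percentiles 94.8, 97.1, 73.6 and 70.7). In NR replicates 1 and 3 the same element had the lowest percentile of the cluster (6.09 and 14.04), with fold enrichments of 3.32 and 4.20, and no peak was called in NR replicate 2 or in GR-con. Fold enrichment was read only as a rank within its own list, because depth is unknown and the control behind each list is not given.

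At Mt1 the promoter element (chr8:94178955-94179371) was called in 2 NR libraries (fold enrichments 9.63 and 9.57, percentiles 84.2 and 76.1), 1 GR-con library (5.59, percentile 45.3) and all 4 DEX libraries (percentiles 81.5, 46.2, 22.9 and 5.90). The downstream element (chr8:94189285-94189754, 10.4 kb past the start, intergenic) was called in every NR, GR-con and DEX library and in no vehicle, DR or GR-KO library. Its percentiles were 86.7, 68.3 and 98.1 in NR, 81.9 and 95.1 in GR-con, 52.4 and 65.6 in DEX 250K and 6.67 and 62.7 in DEX 50K. Further NR sites followed at the start of the noncoding gene Gm39228 (chr8:94183206-94183488, 2 NR and both GR-con libraries) and at 3 intergenic elements between 7.77 and 26.9 kb past the Mt1 start.

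Mt4, the epithelial member, had no element at its own start in any astrocyte library. Its nearest peaks, at -0.983 kb and -2.41 kb, were each called in a single DEX 250K library (percentiles 10.9 and 80.4). The nearest NR site upstream lay at -13.8 kb and the nearest downstream at the Mt3 start. An NR site at -18.0 kb (chr8:94118965-94119344) had percentiles of 89.8 and 84.9 in NR and 58.6 and 35.1 in GR-con.

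**Figure D3:**
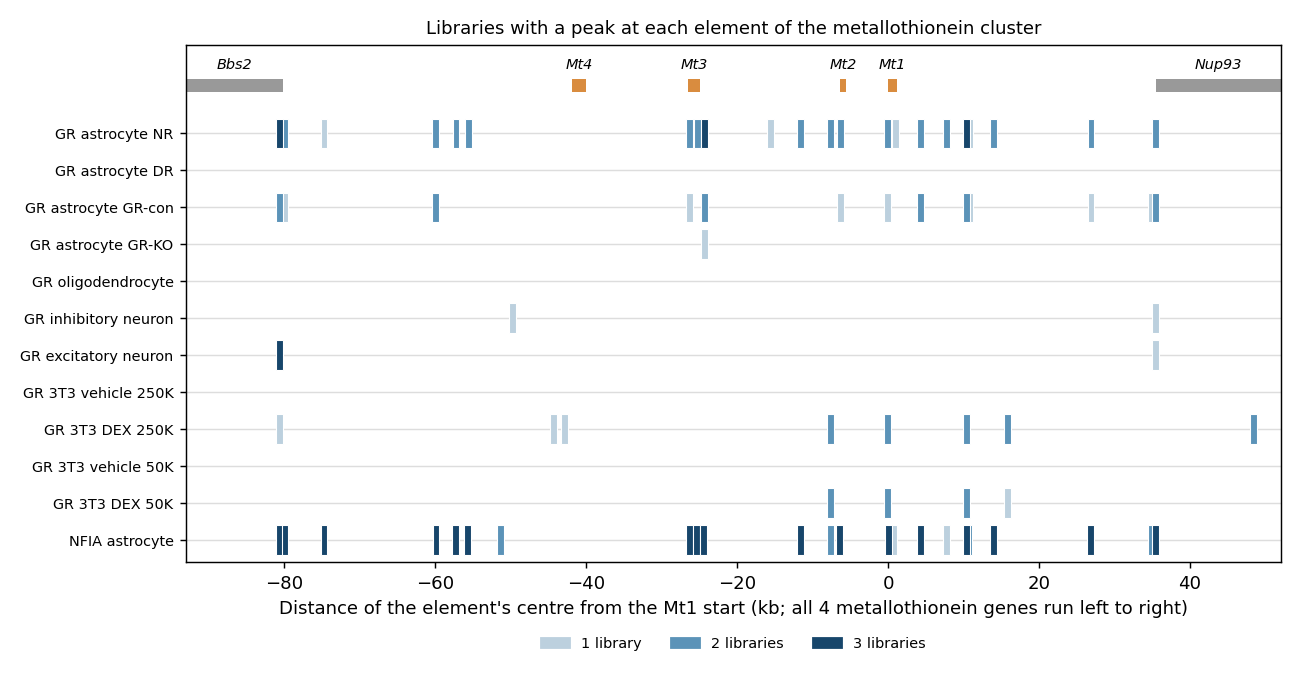
Elements of the metallothionein cluster by distance of their centre from the Mt1 start (horizontal axis, kb), for 11 GR groups and NFIA in astrocytes (rows), with bar shade for the number of libraries with a peak, bars of equal width whatever the element's width, and gene bodies on top. The elements at -7.58 kb, at the Mt1 start and 10.4 kb past it recur in NR astrocytes and DEX-treated 3T3 cells, those at Mt3 are seen in astrocytes only, and that 15.8 kb past the start in 3T3 cells only.

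Astrocytes and dexamethasone-treated fibroblasts shared 3 elements: upstream of Mt2, at the Mt1 start and downstream of Mt1. They made up 3 of the 18 NR sites (16.7%) and 3 of the 5 elements with a peak in both DEX 250K libraries (60%). Over the genome 1.73% of NR sites had a peak in both DEX 250K libraries and 7.45% of the DEX 250K elements were NR sites. Both DEX 50K libraries had peaks at the same 3 elements and at no other element in common. Leaving out NR replicate 1 or NR replicate 3 left 1 shared element, the one downstream of Mt1. The 2 DEX 250K elements without an NR peak lay 15.8 kb past the Mt1 start (chr8:94194708-94195145, percentiles 79.0 and 31.6) and at a start inside Nup93 (chr8:94227359-94227593, percentiles 48.6 and 13.8), and NFIA of astrocytes had no peak at either. Mt1 had 5 DEX 250K sites within 50 kb, Mt2 and Mt3 4 and Mt4 2, where 10.2% of genes had at least 1.

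**Figure D4:**
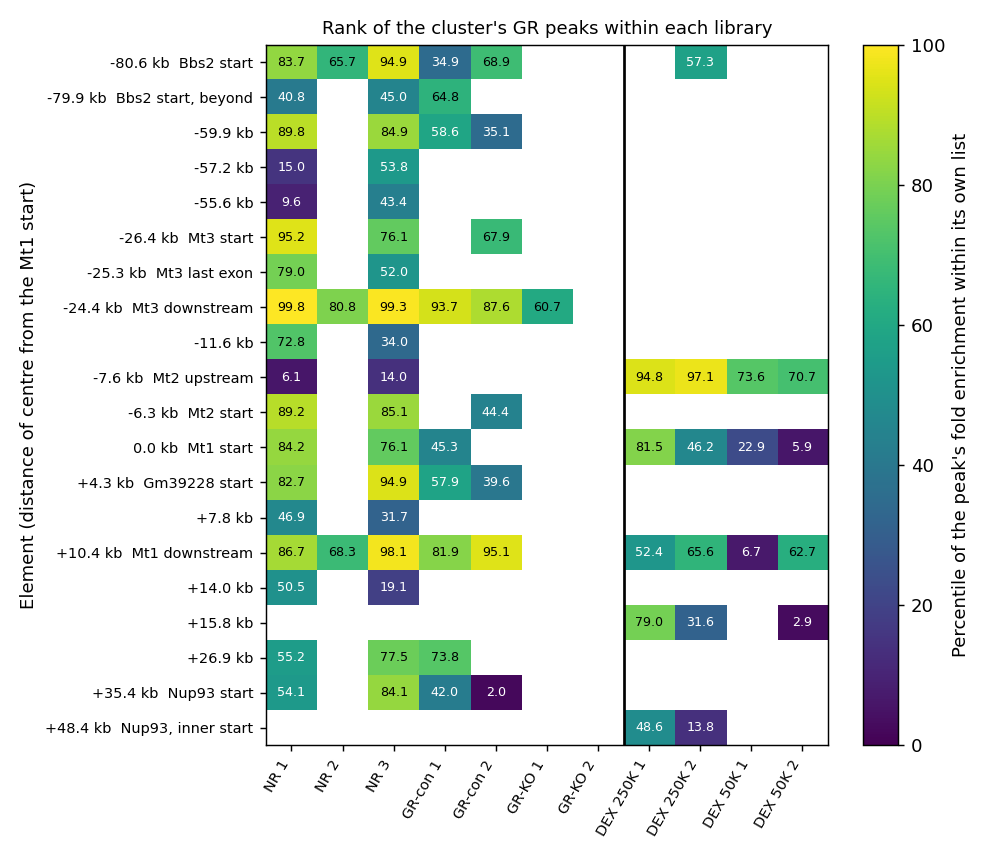
Percentile of the fold enrichment of each GR peak within its own library's list (colour and number, 0 to 100) for the NR sites and DEX 250K elements of the cluster (rows, distance from the Mt1 start) in 11 libraries (columns), with blank cells where no peak was called. The element upstream of Mt2 is at 6.09 and 14.04 in NR astrocytes and at 70.7 to 97.1 in DEX-treated 3T3 cells, and the element downstream of Mt3 is at 80.8 to 99.8 in NR astrocytes and blank in 3T3 cells.

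All 3 shared elements held a GRE-like sequence, printed above. A full GRE lay in the Mt2 upstream window (AGGACAGCCTGTCCT, chr8:94171535-94171549, centre at -1122 bp from the start) and at the Mt1 start (GGGACATGATGTTCC, chr8:94178994-94179008, centre at -81 bp), and the Mt1 downstream window held the looser ACACAATGT. Among the 15 NR sites not shared with DEX 250K, 0 windows held a full GRE and 2 held ACANNNTGT. Of the 12461 NR site windows of the genome 0.995% held a full GRE and 6.78% ACANNNTGT, and of the 2887 DEX 250K windows 4.95% and 23.2%. At Mt1 the 4 DEX summits lay 10 to 39 bp past the centre of the GRE and the 3 astrocyte summits 49 to 120 bp past it. At the Mt2 upstream GRE the distances of the 4 DEX summits, 33 to 116 bp on either side, and of the 2 NR summits, 20 and 107 bp, overlapped. The positions were compared after they had been seen and carry no test.

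The MRE core occurred in 7 of the 18 NR windows (29.1% of NR site windows in the genome), among them the starts of Mt1, Mt2 and Mt3 and that of Gm39228. In the bases before the start it matched 3 times at Mt2, 1 time each at Mt1 and Mt4 and 0 times at Mt3. Further matches began past the start, at 94179091, 94179109 and 94179173 for Mt1 and at 94152634, 94152661 and 94152693 for Mt3. At Mt2 the bases read end at 94172617, short of the GENCODE start at 94172664. More Mt2 matches began at 94172622, 94172676, 94172695 and 94172729. The counts before the start are therefore not those of whole promoters. Of 32851 RefSeq promoters 21.4% had at least 1 match in the 250 bases before the start and 1.26% at least 3. TTGGCA occurred in 5 of 18 NR windows (25.5% in the genome), the full palindrome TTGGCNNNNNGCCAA in 0 of 18 (0.0482%), and the AP-1 motif TGACTCA in 4 of 18 (4.13%) and in 2 of 5 DEX 250K windows (44.0%).

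NFIA peaks overlapped most GR sites of the cluster in astrocytes. Of the 18 NR sites 17 overlapped a peak of at least 2 NFIA astrocyte libraries and 16 of all 3, close to the 95.3% of NR sites in the genome with at least 2. The exception, 7.77 kb past the Mt1 start, overlapped a peak of 1 library. The strongest NFIA cluster peak lay at the Bbs2 start in replicate 1 (percentile 95.6) and downstream of Mt3 in replicates 2 and 3 (percentiles 96.1 and 93.6). At the Mt2 upstream element 2 of 3 NFIA libraries had a peak. Of 21 NFIA elements called in at least 2 astrocyte libraries, 1 had no GR peak in any library (chr8:94127747-94127854). Within 50 kb Mt3 and Mt2 had 16 such NFIA sites, Mt4 15 and Mt1 14, where 65.1% of genes had at least 1.

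The metal handling genes, a list of 24 zinc transporters, ferritin, glutathione and heme genes and the metal-sensing factor Mtf1, had a median of 2 NR sites per gene, against 1 over all genes. NR sites lay within 50 kb of 19 of the 24 (79.2%, against 50.4% of all genes). GR-con sites lay near 7 (29.2%, against 20.8%), DEX 250K sites near 2, Slc30a4 and Fth1 (8.33%, against 10.2%), and NFIA astrocyte sites near 22 (91.7%, against 65.1%). Sites of all 3 NR libraries lay within 50 kb of 4 of these genes, mostly far from their starts. That of Mtf1 lay 47648 bp from its start (chr4:124849638-124849949, in an exon of a neighbouring gene). That of the manganese exporter gene Slc30a10 lay 39024 bp away (chr1:185493584-185494097, in an intron of 5033404E19Rik). The zinc importer gene Slc39a14 had its site 14671 bp away (chr14:70336353-70336847, in its intron). Slc39a12, a zinc importer gene of the brain, had its site at -46101 bp (chr2:14342002-14342368, intergenic). The Slc30a10 site also had peaks in both GR-KO libraries, and none of these 4 sites had a DEX 250K peak. Slc39a1 followed with a site of 2 NR libraries at percentile 99.6, at the start of the neighbouring gene Crtc2 (chr3:90254059-90254318).

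Over the 39 libraries the genes elsewhere in the genome whose peak numbers followed those of Mt1 most closely were Cbfa2t2 (r = 0.961), Nfkbia (r = 0.954), Fem1a (r = 0.952), Sdc4 (r = 0.951) and Gm20458 (r = 0.951). Nfkbia encodes the inhibitor of NF-kB and Sdc4 a cell surface proteoglycan. Nfkbia had 5.00 peaks on average in NR astrocytes, 0 in DR and 4.50 in DEX 250K, where Mt1 had 10.3, 0 and 6. These correlations of log2(peaks + 1) are descriptions over libraries that differ in list size, and the log2 list size itself had r = 0.765 with Mt1.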

How the data were processed

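GR and NFIA CUT&RUN libraries (39 of 50 samples) were analysed from their deposited peak lists. IgG and GFP-negative samples, 11 in all, were not analysed here. As the study's methods and the submitters' processing notes state, the authors used cutadapt for trimming, Bowtie2 for alignment (mm10), Picard for duplicates and SAMtools with deepTools to keep short fragments, and MACS2 then called peaks in each library against IgG. The sources used here do not say which IgG library served each call. The authors deposited for each peak a fold enrichment, −log10 p and −log10 q. The highest q was 0.00999 in vivo and 0.0498 in 3T3 lists, so that peak numbers were not tested between them.

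Groups were taken from the sample labels. Members and lists were chosen with earlier results of these data known. Starts were gene starts in GENCODE M21. Elements were GR peaks merged at 1 bp overlap, and a site needed at least 2 libraries of a group. Comparisons of peak numbers used exact permutation tests, two-sided, adjusted over 5 comparisons by Benjamini-Hochberg (threshold 0.05), with nuclei number as stratum in 3T3 cells. Percentile is the share of a list's peaks at or below a fold enrichment. p-values measure the spread between pooled-tissue replicates in vivo, and in 3T3 cells that between samples which may be technical. Named genes were the members, the protein-coding neighbours Bbs2 and Nup93, the 5 genes over 200 kb away with the highest Pearson r with Mt1, and up to 5 metal handling genes with a site in most NR libraries (ties by percentile). Functions were tested on simulated peaks. Python 3.11.15, NumPy 2.4.6, SciPy 1.17.1 and pysam 0.24.0 were used. Alternatives were other windows (20 and 100 kb), overlap in place of summit, q cuts, scales, equal list lengths, single libraries left out and a replicate block.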

Additional observations from a re-analysis of the deposited data

How the results depend on the processing

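Peak numbers kept their direction and side of the threshold with any-base overlap, windows of 20 and 100 kb, q at or below 0.001 or 0.01, the log2 scale and, chosen after seeing the data, without the Bbs2 and Nup93 starts. Both comparisons of astrocytes with other V1 cell types lost their call as a share per 10000 peaks averaged over libraries. This gave -8.01 for GR, reversed, and 2.83 for NFIA. Equal numbers of best-ranked peaks gave 0 for both, but the smallest lists left 4 and 1 peaks per library, at which 0 was foreseeable, so these values say nothing. Lists of at least 1000 peaks, also chosen after seeing the data, gave 2.25 and 1.33 for the best 1000 and 7.61 and 5.11 for the share, with exact permutation adjusted p of 0.0714 to 0.125. With so few libraries (smallest p 0.0286 for GR and 0.1 for NFIA) these could not pass the adjusted threshold, and say nothing on stability. With 28 best-ranked peaks per library NR held 0.33 more cluster peaks than DR.

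Leaving out single libraries gave differences of 11.5 to 20.0 for NR against DR, 7.50 to 10.5 for GR-con against GR-KO, 4.33 to 5.67 for DEX against vehicle, and 10.8 to 19.3 (GR) and 20.5 to 20.8 (NFIA) against other cell types, with no call lost. Shared elements numbered 1 when called in every library, and 1 to 4 with a library left out (1 without NR replicate 1 or NR replicate 3). At single genes 11 values moved, all with the 20 kb window, and 9 did not, with no direction changed.

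The background share of genes without overlap between groups moved with a 20 kb window to 5.53% for NR against DR, 11% for GR-con against GR-KO, 0.447% for DEX against vehicle and 2.60% for NR against other cell types. Among genes with a peak in the comparison it was 16.4%, 47.4% and 5.69% for the first 3.

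The replicate numbers carry no stated pairing. The correlation of deviations of equal numbers ran from -0.114 to 0.389 over 27 pairs of libraries. With the replicate block the differences stayed at 14.3, 9, 5, 13.7 and 20.6 peaks, with exact permutation adjusted p of 0.313, 0.500, 0.208, 0.0391 and 0.0391. NR against DR, GR-con against GR-KO and DEX against vehicle cannot reach 0.05 in these designs, and short lists limit every count of 0.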
